A study of Rattus norvegicus with 4 samples.

Results

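The Ensembl long non-coding RNA (lncRNA) transcripts of primary rat cardiomyocytes were described in high and normal glucose. They were chosen as the transcripts with an Ensembl identifier whose FPKM averaged 1 or more across the 4 libraries, with a transcript that a library did not list taken as 0, and without the identifiers ENSRNOT00000074532 and ENSRNOT00000075924. FPKM is the read count per kilobase of transcript and per 1000000 of the library total. The rule gave 107 transcripts, out of 529 Ensembl transcripts and 17934 lncRNA transcripts listed in all. The measured lncRNA transcripts, those at a mean of 1 FPKM or more whatever their identifier, numbered 7321. The other 7214 measured transcripts were mostly NONCODE entries (6986) and transcripts with identifiers of an assembly (226). The rule used the mean level, so levels are given as a description.

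The cells were primary neonatal cardiomyocytes from rats of the Sprague-Dawley strain, aged 1 to 2 days. All were kept in M199 medium, to which 5 mM taurine, 5 mM creatine and 2 mM carnitine had been added. High glucose (HG) medium held 33 mmol/l glucose. Normal glucose (NG) medium held 5 mmol/l glucose together with 28 mmol/l mannitol, a sugar alcohol that keeps the osmolality equal. Both media were applied for 48 h or 24 h, and each of the 4 groups (HG 48 h, NG 48 h, HG 24 h and NG 24 h) was represented by 1 library of total RNA. A difference between a pair of libraries therefore has no replicate check and no p-value. The labels do not say how many animals or cultures stood behind a library. Fewer cells of a type and less RNA per cell cannot be told apart in such libraries, and since the tables name no genes, cardiomyocyte markers were not analysed here.

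LncRNAs are transcripts longer than 200 nt that are not known to code for protein. Many are spliced and polyadenylated like messenger RNAs, and they are known to act in the nucleus on chromatin and transcription or in the cytoplasm on RNA stability, translation and microRNAs. Ensembl annotates them gene by gene with their isoforms, whereas NONCODE collects lncRNA models from many sources. In the heart, lncRNAs are known from work on development, hypertrophy and the response to metabolic stress, and high glucose on cultured cardiomyocytes is a common model of the diabetic heart. The deposited tables pair the Ensembl identifiers with no gene names, so roles of single transcripts are not given and each is described by its identifier and its span in the rat genome build rn6.

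The Ensembl transcripts were mostly spliced models, whereas the other measured lncRNAs were often single blocks. Of the 107 transcripts, 98 (91.6%) had a genomic span longer than the transcript, as a spliced RNA does, against 54.3% of the other measured transcripts. 9 (8.41%) were single blocks, against 45.7%. Their median length was 863 nt, with a range of 232 to 5614 nt, against a median of 774 nt for the others, and their median span was 5259 bases, against 1835.5 bases. They lay on 21 chromosomes. Chromosome X held 13 (12.1%), against 3.42% of the other measured transcripts, and chromosome 20 held 12 (11.2%), against 1.98%. 8 of the 12 on chromosome 20 started within its first 6000000 bases, which held 32 of the other measured transcripts, 22.4% of those on that chromosome. This limit was chosen after the positions were seen. 70 of the transcripts also carried a NONCODE identifier of their own in the tables, and 37 repeated the Ensembl identifier in that field.

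In level, most of the Ensembl transcripts were low. Their median mean level was 2.31 FPKM, against 2.87 FPKM for the other measured transcripts. 43 stood between 1 and 2 FPKM, 21 reached 5 FPKM and 10 (9.35%) reached 10 FPKM, a level that 15.7% of the other measured transcripts reached. 76 were at 1 FPKM or more in all 4 libraries, 20 in 3, 9 in 2 and 2 in 1 library. In counts they were covered like the rest, with a median mean count of 33.75 reads, against 34 reads. 42 transcripts (39.3%) had a mean count of 50 or more, against 39.2% of the others, and 8 had a mean count under 10. Just inside the threshold, ENSRNOT00000085232 had a mean of 1.01 FPKM and ENSRNOT00000091905 a mean of 1.04 FPKM. Just outside it were ENSRNOT00000086332, at 0.967 FPKM, and ENSRNOT00000090812, at 0.983 FPKM.

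Summed counts of the 107 transcripts came to 8034 in HG at 48 h, 9830 in NG at 48 h, 10959 in HG at 24 h and 8941 in NG at 24 h. As a share of the library total recovered from the FPKM values, this was 0.0565% in HG at 48 h (95% Wilson interval 0.0553 to 0.0577), against 0.0662% in NG at 48 h (0.0649 to 0.0675). At 24 h it was 0.0700% in HG (0.0687 to 0.0713), against 0.0753% in NG (0.0737 to 0.0769). The HG share was thus below the NG share at both times, and the 48 h share below the 24 h share in both media. The ratio of the HG share to the NG share was 0.854 at 48 h (95% counting interval 0.829 to 0.879) and 0.930 at 24 h (0.904 to 0.956). All listed lncRNA transcripts together held 6.36% of the library total in HG and 7.24% in NG at 48 h, and 6.83% in HG and 7.13% in NG at 24 h, so their share was lower in HG too, at a ratio of 0.879 at 48 h and 0.958 at 24 h. From 24 h to 48 h their share fell in HG but rose in NG. Abundant transcripts weigh most in a summed share, and the median log2 ratio of 48 h over 24 h among the 107 was −0.04 in NG and −0.10 in HG. Set against listed lncRNA counts, the ratio of the HG share of the 107 to the NG share was 0.971 at 48 h (0.943 to 1.00) and 0.971 at 24 h (0.944 to 0.999). Without the most abundant transcript the ratio of shares of the library total was 0.918 at 48 h (0.889 to 0.947) and 0.949 at 24 h (0.920 to 0.978). Intervals and floors cover counting error only, since without molecular identifiers copies made by PCR count as reads of their own. The 10 transcripts of highest mean FPKM held 41.0% of the summed FPKM in HG and 47.7% in NG at 48 h, and 52.2% in HG and 53.1% in NG at 24 h.

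ENSRNOT00000088540 was the most abundant of the Ensembl transcripts, by FPKM and by count. It is a spliced RNA of 888 nt at chr3:124004419-124005426, with no other listed transcript at its locus, and it ranked 40 of the 7321 measured transcripts. Its level was 54.7 FPKM in HG and 112 FPKM in NG at 48 h, and 112 FPKM in HG and 135 FPKM in NG at 24 h, from 691, 1476, 1559 and 1424 reads in the same order. The HG library at 48 h stood apart at the low end, and the other 3 lay within a narrow range. It was 2.05-fold lower in HG at 48 h, with a 95% counting interval of 1.87 to 2.24, and 1.20-fold lower in HG at 24 h (1.12 to 1.29).

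The next 3 transcripts by level varied less. ENSRNOT00000083856 (chr10:1701449-1702704, 440 nt, spliced) had 31.5 FPKM in HG and 30.8 FPKM in NG at 48 h, and 26.7 FPKM in HG and 36.2 FPKM in NG at 24 h. ENSRNOT00000087471 (chr20:4871264-4873982, 767 nt, spliced) had 20.8 FPKM in HG and 31.2 FPKM in NG at 48 h, and 37.4 FPKM in HG and 30.3 FPKM in NG at 24 h. ENSRNOT00000075125 (chr15:10262972-10319741, 4740 nt, spliced) had 13.4 FPKM in HG and 12.0 FPKM in NG at 48 h, and 19.1 FPKM in HG and 20.4 FPKM in NG at 24 h. Its 48 h libraries were both below its 24 h libraries, and by read count it was the second of the Ensembl transcripts, with 902, 847, 1414 and 1146 reads in the same order. Of the others among the 10 most abundant, ENSRNOT00000089742 (chr14:83881371-83885791) lay between 12.2 and 14.0 FPKM, ENSRNOT00000077404 (chr1:90820595-90848674) between 9.57 and 14.9 FPKM and ENSRNOT00000090971 (chr11:87345865-87360080) between 11.0 and 12.6 FPKM. The ranking by FPKM and the ranking by count shared 6 of their first 10 transcripts, as FPKM divides by length and counts do not.

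**Figure D1:**
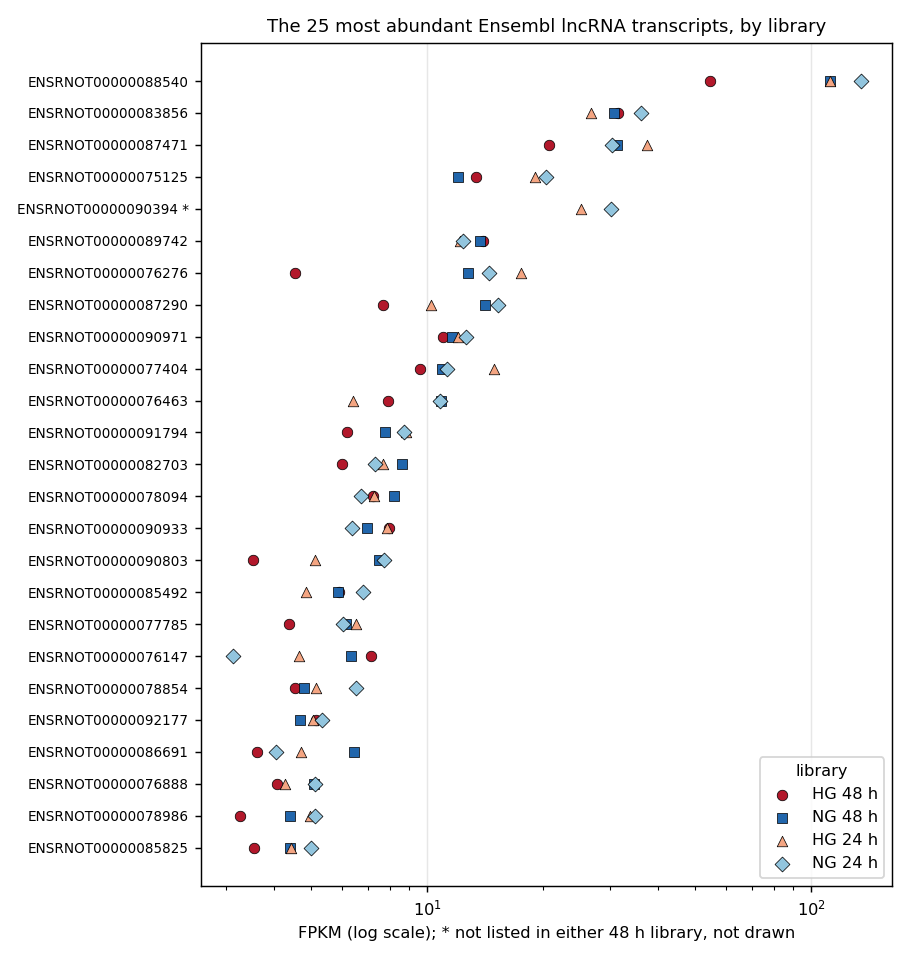
FPKM (log axis) of the 25 most abundant Ensembl lncRNA transcripts, one row per transcript, with one marker for each of the 4 libraries (no replicates, so no error bars). ENSRNOT00000088540 stands far to the right, with its HG 48 h value at 54.7 FPKM and the other 3 at 112 FPKM or more, and ENSRNOT00000090394 has markers at 24 h only.

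Over the 4 libraries, the well covered Ensembl transcripts varied about as much as other lncRNAs. Among the 42 with a mean count of 50 or more, the highest CPM (reads per 1000000 of the library total) was a median 1.43 times the lowest, against 1.46 times for the 2825 other measured transcripts so covered. 6 (14.3%) had a highest value over 2 times the lowest, against 20.4%, and 1 over 8 times, against 6.51%. Below a mean count of 50 the median ratio was 1.80, against 1.90. The steadiest well covered transcripts were ENSRNOT00000076902 and ENSRNOT00000090971. ENSRNOT00000076902 (chr13:77979829-77988006, 987 nt) had 4.13 FPKM in HG and 3.75 FPKM in NG at 48 h, and 3.62 FPKM in HG and 3.92 FPKM in NG at 24 h. ENSRNOT00000090971, a spliced RNA of 5400 nt, had 848 reads in HG and 933 reads in NG at 48 h, and 1017 reads in HG and 810 reads in NG at 24 h. In both, the highest CPM was 1.14 times the lowest.

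**Figure D2:**
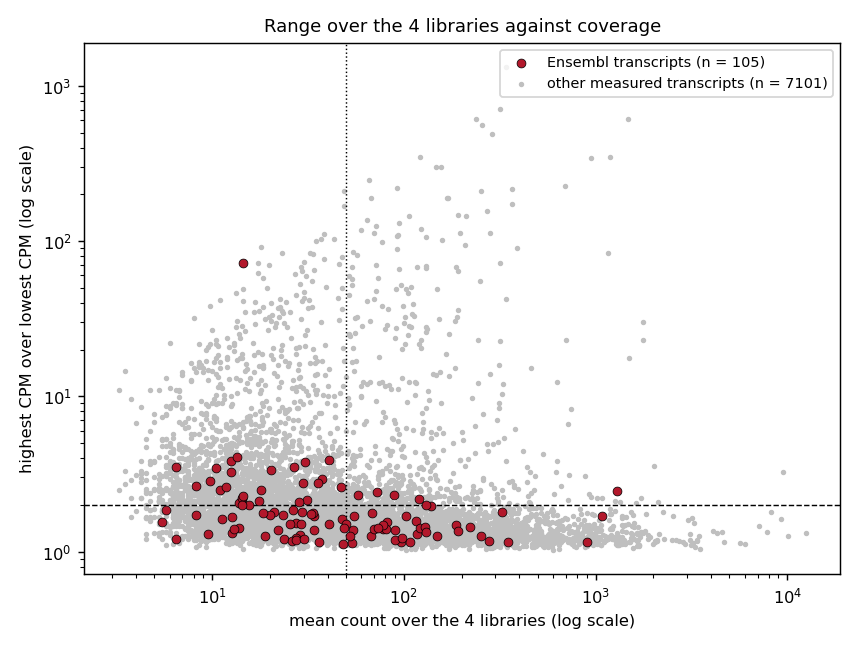
Highest over lowest CPM of each transcript (log axis) against its mean count over the 4 libraries (log axis), for 105 Ensembl transcripts (red) and 7101 other measured transcripts (grey) with reads in all 4 libraries. The dashed line marks a ratio of 2 and the dotted line a mean count of 50; right of the dotted line most red points lie under the dashed one, and the spread widens to the left of it.

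High glucose was compared with normal glucose at each time, the question the design names, and few Ensembl transcripts differed by 2-fold. Calls were made on log2 (CPM + 1), a scale that shrinks the difference of low transcripts, and the folds printed are plain ratios of CPM. At 48 h, 2 of the 107 were 2-fold higher in HG, where 2.85% of all measured transcripts were, and 2 were 2-fold lower, where 4.32% were. At 24 h, 1 was 2-fold higher in HG (2.34% of all measured transcripts) and 2 were 2-fold lower (2.55%). These counts are near the background shares. The median log2 ratio of HG over NG was −0.09 at 48 h, against −0.14 over all measured transcripts, and −0.05 at 24 h, against −0.04. Scaling by TMM factors in place of library totals moved the median of all measured transcripts at 48 h by 0.13, turned that of the 107 to 0.02, and gave 3 higher and 0 lower there, and 1 higher and 1 lower at 24 h. With these factors 258 of the 7321 measured transcripts were 2-fold higher and 246 lower at 48 h, and 175 higher and 179 lower at 24 h.

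The transcripts 2-fold higher in HG at 48 h were ENSRNOT00000090050 and ENSRNOT00000077277. ENSRNOT00000090050 (chr20:3403204-3403731, a single block of 528 nt) had 5.06 FPKM in HG at 48 h and 6.41 FPKM in HG at 24 h, and neither NG library listed it, which was taken as 0. In reads this was 38 in HG and 0 in NG at 48 h, and 53 in HG and 0 in NG at 24 h. The media do not overlap, and against a floor of 3 counts in the NG library it was at least 13.2-fold higher in HG at 48 h and at least 13.4-fold higher at 24 h. It was the only one of the 107 past 2-fold on log2 (CPM + 1) in the same direction at both times. It reached the mean of 1 FPKM only through the HG libraries, so its glucose ratio is a description and not support for a difference. ENSRNOT00000077277 (chr16:36258595-36274047, 2028 nt, spliced) had 1.94 FPKM in HG and 0.664 FPKM in NG at 48 h, and 1.35 FPKM in HG and 1.29 FPKM in NG at 24 h. It was 2.92-fold higher in HG at 48 h (95% counting interval 1.73 to 5.14), from 56 and 20 reads, and the 24 h ratio was 1.05 (0.648 to 1.73). The NG libraries of ENSRNOT00000077277 averaged under 1 FPKM, so it too passed the filter through the HG libraries. Its glucose ratio is likewise a description.

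On the lower side at 48 h, ENSRNOT00000088540 (above) was joined by ENSRNOT00000086642 (chr16:36374593-36388331, 447 nt, spliced). Its level was 1.89 FPKM in HG and 6.63 FPKM in NG at 48 h, and 3.86 FPKM in HG and 4.52 FPKM in NG at 24 h. The 24 h libraries lay between the 48 h ones. It was 3.51-fold lower in HG at 48 h (1.82 to 7.30), from 12 and 44 reads, with a ratio of 0.854 at 24 h (0.474 to 1.55). At 24 h, the lower transcripts were ENSRNOT00000076920 and ENSRNOT00000082259. ENSRNOT00000076920 (chrX:74333329-74334974, 602 nt, spliced) had 1 read in HG and 1 read in NG at 48 h, and 1 read in HG and 55 reads in NG at 24 h, so a single library held nearly all of its reads. The 24 h ratio was 72.5-fold lower in HG, with a counting interval of 12.5 to 2914. ENSRNOT00000082259 (chr15:20339744-20343099, 2078 nt, spliced) had 1.15 FPKM in HG and 1.23 FPKM in NG at 48 h, and 0.707 FPKM in HG and 1.94 FPKM in NG at 24 h. It was 2.75-fold lower in HG at 24 h (1.64 to 4.74) and stood at a ratio of 0.934 at 48 h (0.571 to 1.52). The HG libraries of ENSRNOT00000082259 averaged under 1 FPKM, so it passed the filter through the NG libraries. Its glucose ratio is a description and not support for a difference.

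**Figure D3:**
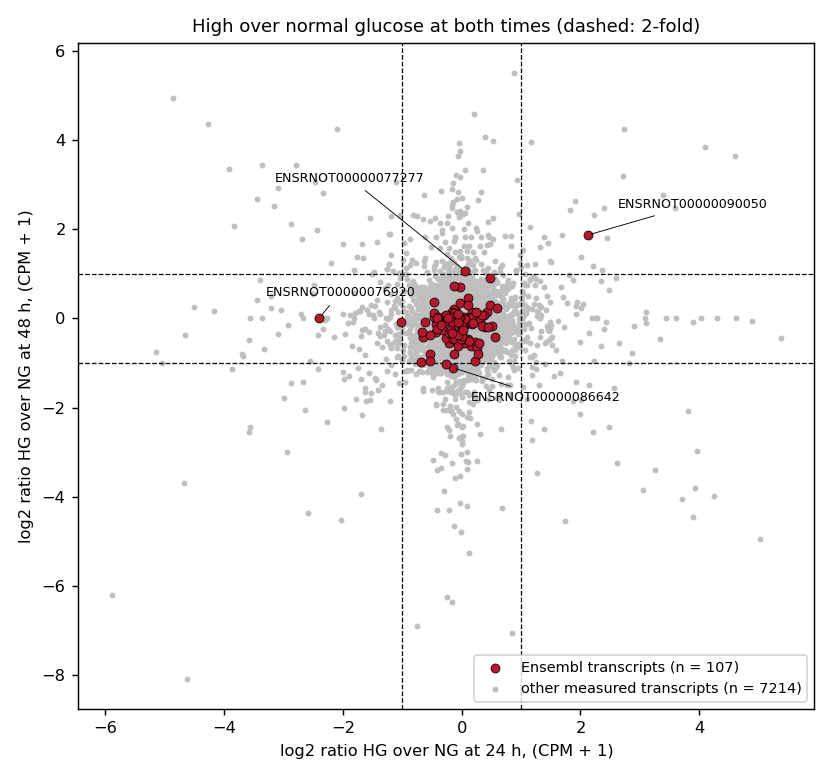
Log2 ratio of HG over NG, on (CPM + 1), at 24 h (x axis) and 48 h (y axis) for the 107 Ensembl transcripts (red) and the 7214 other measured transcripts (grey), with dashed lines at 2-fold. The red points gather around the centre, ENSRNOT00000090050 is the one past 2-fold higher at both times, and ENSRNOT00000076920 lies far to the left at 24 h with a 48 h ratio near 0.

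Other transcripts lay in the same direction at both times without passing 2-fold at both on log2 (CPM + 1). 12 of the 107 had both HG libraries above both NG libraries, where 11.7% of all measured transcripts did, and 27 had both HG libraries below both NG libraries, where 26.0% did. With TMM factors these counts were 17 and 18, where 17.3% and 18.0% of all measured transcripts did. ENSRNOT00000086616 (chr15:12756403-12796711, 2046 nt, spliced) was higher in HG at both times, with 3.95 FPKM in HG and 1.88 FPKM in NG at 48 h, and 2.47 FPKM in HG and 1.65 FPKM in NG at 24 h. Its ratio was 2.11 at 48 h (1.52 to 2.95) and 1.50 at 24 h (1.01 to 2.25). ENSRNOT00000090803 (chr2:251534907-251607676, 1439 nt, spliced) was lower in HG at both times, with 3.52 FPKM in HG and 7.48 FPKM in NG at 48 h, and 5.11 FPKM in HG and 7.72 FPKM in NG at 24 h. It was 2.13-fold lower at 48 h (1.60 to 2.85) and 1.51-fold lower at 24 h (1.17 to 1.96). The 2 NG libraries were close to each other in both transcripts. ENSRNOT00000087290 (chr18:53216095-53272041, 788 nt, spliced), one of the 10 most abundant, had 7.67 FPKM in HG and 14.2 FPKM in NG at 48 h, and 10.2 FPKM in HG and 15.3 FPKM in NG at 24 h. It was 1.85-fold lower in HG at 48 h (1.42 to 2.43) and 1.50-fold lower at 24 h (1.17 to 1.92). ENSRNOT00000090255 (chr19:39502153-39537050, 1296 nt, spliced) had 0.542 FPKM in HG and 1.82 FPKM in NG at 48 h, and 0.641 FPKM in HG and 1.49 FPKM in NG at 24 h, which was 3.35-fold lower at 48 h (1.62 to 7.59) and 2.33-fold lower at 24 h (1.13 to 5.01).

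With the times standing in for replicates, edgeR's quasi-likelihood test over all 7321 measured transcripts, with terms for medium and time and 1 residual degree of freedom, called 0 of the 107 transcripts for glucose at a Benjamini-Hochberg adjusted p under 0.05. It called 1 of all measured transcripts (0.0137%). At an unadjusted p under 0.05, 2 of the 107 were higher in HG (ENSRNOT00000090050 and ENSRNOT00000086616) and 5 lower (ENSRNOT00000088540, ENSRNOT00000087290, ENSRNOT00000090803, ENSRNOT00000090255 and ENSRNOT00000076920), where 1.73% of all measured transcripts passed as higher, 3.02% as lower and 4.75% in either direction. ENSRNOT00000090050, ENSRNOT00000090255 and ENSRNOT00000076920 reached the mean of 1 FPKM only through the medium in which they were high, so nothing is read from their place in these counts. Without the NG 24 h library the fitted glucose change of ENSRNOT00000076920 was −0.0069 on the log2 scale, against −4.72 with it. The lowest adjusted p by edgeR was 0.444, for ENSRNOT00000090050. Of the alternatives tried, that transcript passed with an adjusted p of 0.0437 by DESeq2 and 0.0135 by edgeR without the filter on low values. As it entered the set only through the HG libraries, these values are not read as support for a glucose difference. For ENSRNOT00000088540 the adjusted p by edgeR was 0.882, with a range of 0.290 to 1.00 over the alternatives.

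The second comparison set 48 h against 24 h within each medium. In HG, 0 of the 107 transcripts were 2-fold higher at 48 h (2.57% of all measured transcripts were) and 5 were 2-fold lower (4.34%). In NG, 0 were 2-fold higher (2.02%) and 3 were 2-fold lower (2.65%). The highest log2 ratios were 0.88 in HG and 0.78 in NG, below the threshold of 1. The median log2 ratio was −0.10 in HG, against −0.09 over all measured transcripts, and −0.04 in NG, against 0.01. With TMM factors, 1 was higher and 2 were lower at 48 h in HG, where 230 and 280 of the 7321 measured transcripts were.

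ENSRNOT00000090394 differed most between the times. It is a spliced RNA of 459 nt at chr7:83989468-83991369, with no other listed transcript at its locus. Neither 48 h library listed it, which was taken as 0, and it stood at 25.2 FPKM in HG and 30.1 FPKM in NG at 24 h, from 181 and 164 reads, which placed it among the 10 most abundant Ensembl transcripts. The times do not overlap. Against a floor of 3 counts in the 48 h library it was at least 54.8-fold lower at 48 h in HG and at least 68.4-fold lower in NG, and the glucose ratio at 24 h was 0.837 (0.674 to 1.04). It was the only one of the 107 past 2-fold on log2 (CPM + 1) in the same direction in both media. It reached the mean of 1 FPKM only through the 24 h libraries, so its time ratio is a description and not support for a difference.

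The other transcripts past 2-fold were lower at 48 h in 1 medium each. ENSRNOT00000076276 (chr14:60060072-60069864, 232 nt, spliced), the shortest of the 107, had 4.54 FPKM in HG and 12.8 FPKM in NG at 48 h, and 17.6 FPKM in HG and 14.5 FPKM in NG at 24 h. It was 3.88-fold lower at 48 h in HG (2.18 to 7.33), from 15 and 64 reads, with a ratio of 0.879 in NG (0.560 to 1.38). ENSRNOT00000088540 was 2.05-fold lower at 48 h in HG (1.87 to 2.25) and 1.21-fold lower in NG (1.12 to 1.30). With other scalings the HG ratio did not reach 2-fold, at −0.88 on log2 (CPM + 1) with TMM and with median-of-ratios factors and −0.92 with the same sum, against −1.02 by library totals. The low value of the HG library at 48 h thus enters both its glucose and its time ratio. 2 more transcripts passed in HG and are named after their values were seen. ENSRNOT00000084263 (chr20:3704208-3706631) was 2.61-fold lower (1.62 to 4.35), from 24 reads at 48 h and 69 reads at 24 h, and ENSRNOT00000084817 (chr1:262923269-262932424) was 2.30-fold lower (1.68 to 3.18), from 57 reads at 48 h and 144 reads at 24 h. In NG, ENSRNOT00000076920 had 1 read at 48 h and 55 reads at 24 h, 68.8-fold lower (11.8 to 2766), and ENSRNOT00000076561 was 3.75-fold lower (1.91 to 7.92), from 12 reads at 48 h and 36 reads at 24 h.

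On the higher side at 48 h, values stayed below the 2-fold threshold on log2 (CPM + 1). ENSRNOT00000076147 (chr1:134873400-134887841, 755 nt, spliced) was higher at 48 h in both media, with 7.17 FPKM in HG and 6.33 FPKM in NG at 48 h, and 4.65 FPKM in HG and 3.12 FPKM in NG at 24 h. Its ratio of 48 h over 24 h was 1.54 in HG (1.08 to 2.22) and 2.03 in NG (1.29 to 3.26). ENSRNOT00000082683 (chrX:119194437-119200775, 4311 nt, spliced) had the highest ratio in HG, 1.97 (1.54 to 2.53), from 188 reads at 48 h and 105 reads at 24 h, against 1.05 in NG (0.813 to 1.35). ENSRNOT00000083393 (chr7:20849724-20856988, 467 nt, spliced) had a ratio of 1.94 in HG (1.16 to 3.30) and 0.800 in NG (0.422 to 1.51). ENSRNOT00000089995 (chr17:22252020-22263289) was higher at 48 h in both media, with a ratio of 1.41 in HG (1.01 to 1.96) and 1.30 in NG (0.931 to 1.83). ENSRNOT00000089581 (chr18:31295425-31305937) had a ratio of 2.50 in NG, from 25 reads at 48 h and 8 reads at 24 h (1.09 to 6.41), and of 1.05 in HG (0.528 to 2.06).

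10 of the 107 transcripts had both 48 h libraries above both 24 h libraries, where 13.6% of all measured transcripts did, and 25 had both below, where 19.2% did. With TMM factors these counts were 17 and 21, where 17.6% and 17.2% of all measured transcripts did. The same edgeR fit called 0 of the 107 for time at an adjusted p under 0.05, and 0 of all measured transcripts (0.00%). At an unadjusted p under 0.05, 1 was higher at 48 h (ENSRNOT00000076147) and 5 were lower (ENSRNOT00000090394, ENSRNOT00000075125, ENSRNOT00000076920, ENSRNOT00000090633 and ENSRNOT00000088540), where 1.60% of all measured transcripts passed as higher, 2.65% as lower and 4.25% in either direction. ENSRNOT00000090394 and ENSRNOT00000076920 reached the mean of 1 FPKM only through the 24 h libraries, so nothing is read from their place in these counts. ENSRNOT00000075125 was 1.42-fold lower at 48 h in HG (1.31 to 1.55) and 1.69-fold lower in NG (1.55 to 1.85), with an adjusted p by edgeR of 0.771. The lowest adjusted p by edgeR was 0.172, for ENSRNOT00000090394. Of the alternatives, it passed without the filter on low values and by limma on log2 (FPKM + 1). As it entered the set only through the 24 h libraries, these values are not read as support for a time difference. DESeq2 called 0 of the 107 for time.

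11 of the 107 Ensembl transcripts (10.3%) were past 2-fold in at least 1 of the 4 comparisons, against 946 of all measured transcripts (12.9%), and 96 stayed within 2-fold on log2 (CPM + 1) in all of them. Pairs of comparisons share libraries, so their counts are not independent. Among the 11, ENSRNOT00000090050, ENSRNOT00000076920 and ENSRNOT00000090394 reached the mean of 1 FPKM only through libraries in which they were high. ENSRNOT00000077277 and ENSRNOT00000082259 also averaged under 1 FPKM over the libraries of the medium in which they were lower. 7 of the 11 lay at loci where the tables list other transcripts, and these loci are described transcript by transcript. FPKM and count ratios differed by at most 0.0249% for any of the 107. The library totals were recovered from count and FPKM, so this agreement was fixed in advance and is no separate check.

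Listed transcripts were joined into a locus where their spans share 1 base or more, directly or through a further transcript. The 107 transcripts fell on 97 loci. 52 transcripts (48.6%) shared their locus with other listed transcripts, at 42 loci, against 34.3% of the other measured transcripts, and 55 stood alone. Among spliced transcripts the shares were 52.0% and 50.7%. 21 of the 42 loci held another Ensembl transcript and 13 held Ensembl transcripts only, with up to 8 listed at a locus. The tables give no strand, so an overlapping transcript may be an isoform or an antisense partner.

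9 loci held more than 1 of the 107 transcripts, 19 in all. At most of these loci the same one of these transcripts had the highest FPKM in every library. At chr20:4871264-4873982, ENSRNOT00000087471 held 89.7% of the locus counts in HG at 48 h (95% Wilson interval 85.4 to 92.9) and between 86.2% and 91.5% in the other libraries. ENSRNOT00000077098, which starts 7 bases after it, had 16 reads in HG and 28 reads in NG at 48 h, and 38 reads in HG and 37 reads in NG at 24 h. It was lower at 48 h in both media, 2.16-fold in HG (1.18 to 4.15) and 1.65-fold in NG (0.984 to 2.80). On chromosome 13, ENSRNOT00000076888 (chr13:77784855-77822333, 3878 nt) had between 224 and 293 reads, and ENSRNOT00000076385, whose span overlaps it, between 7 and 15 reads. On chromosome 14, ENSRNOT00000089742 held between 44.7% and 49.5% of the locus counts and ENSRNOT00000076420 (chr14:83878295-83887584, 5121 nt) between 34.9% and 41.6%. The summed CPM of this locus lay between 51.0 and 53.4, the highest 1.05 times the lowest. On chromosome 6, ENSRNOT00000076887 (chr6:114759474-114966751) lay between 3.49 and 4.85 FPKM, above ENSRNOT00000076831 (chr6:114760332-115001703), between 1.66 and 2.11 FPKM, in all 4 libraries.

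At the locus on chromosome 1 with 3 of the transcripts, their order differed between libraries. ENSRNOT00000076147 held 53.8% of the locus counts in HG (45.7 to 61.8) and 49.0% in NG (41.0 to 57.0) at 48 h, and 37.9% in HG (30.4 to 46.0) and 24.8% in NG (17.7 to 33.5) at 24 h. ENSRNOT00000076561 (chr1:134873469-134885613, 580 nt) had 28 reads in HG and 12 reads in NG at 48 h, and 46 reads in HG and 36 reads in NG at 24 h. ENSRNOT00000076482 (chr1:134873408-134887403, 564 nt) had 27 reads in HG and 41 reads in NG at 48 h, and 30 reads in HG and 38 reads in NG at 24 h. By FPKM, ENSRNOT00000076147 was the highest of the 3 in both 48 h libraries and the lowest in NG at 24 h. The reads of the whole locus summed to 143 in HG and 145 in NG at 48 h, and 145 in HG and 113 in NG at 24 h, and its highest summed CPM was 1.09 times the lowest.

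The pair on chromosome 19 have the same span, chr19:39502153-39537050, and differ in length (1350 nt and 1296 nt). ENSRNOT00000077876, the longer, had 29 reads in HG and 22 reads in NG at 48 h, and 50 reads in HG and 24 reads in NG at 24 h. ENSRNOT00000090255 had 10 reads in HG and 35 reads in NG at 48 h, and 13 reads in HG and 23 reads in NG at 24 h. The shorter transcript thus took the smaller part of the reads in both HG libraries. Its share of the locus was 25.6% in HG (14.6 to 41.1) and 61.4% in NG (48.4 to 72.9) at 48 h, and 20.6% in HG (12.5 to 32.2) and 48.9% in NG (35.3 to 62.8) at 24 h. The summed ratio of HG over NG was 0.715 at 48 h and 1.02 at 24 h. At chr20:56198049-56199332, where 3 Ensembl transcripts have 1 span, ENSRNOT00000085825 had the most reads in every library, 40 to 55, and ENSRNOT00000082897 had 9 to 16. On chromosome X, ENSRNOT00000083877 (chrX:35972373-35984183) had 20 to 39 reads and ENSRNOT00000087267 (chrX:35971697-35975260) 16 to 23, and the second pair on chromosome 13, ENSRNOT00000076847 (chr13:75163933-75167669) and ENSRNOT00000076586 (chr13:75158130-75172023), had at most 19 reads each.

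**Figure D4:**
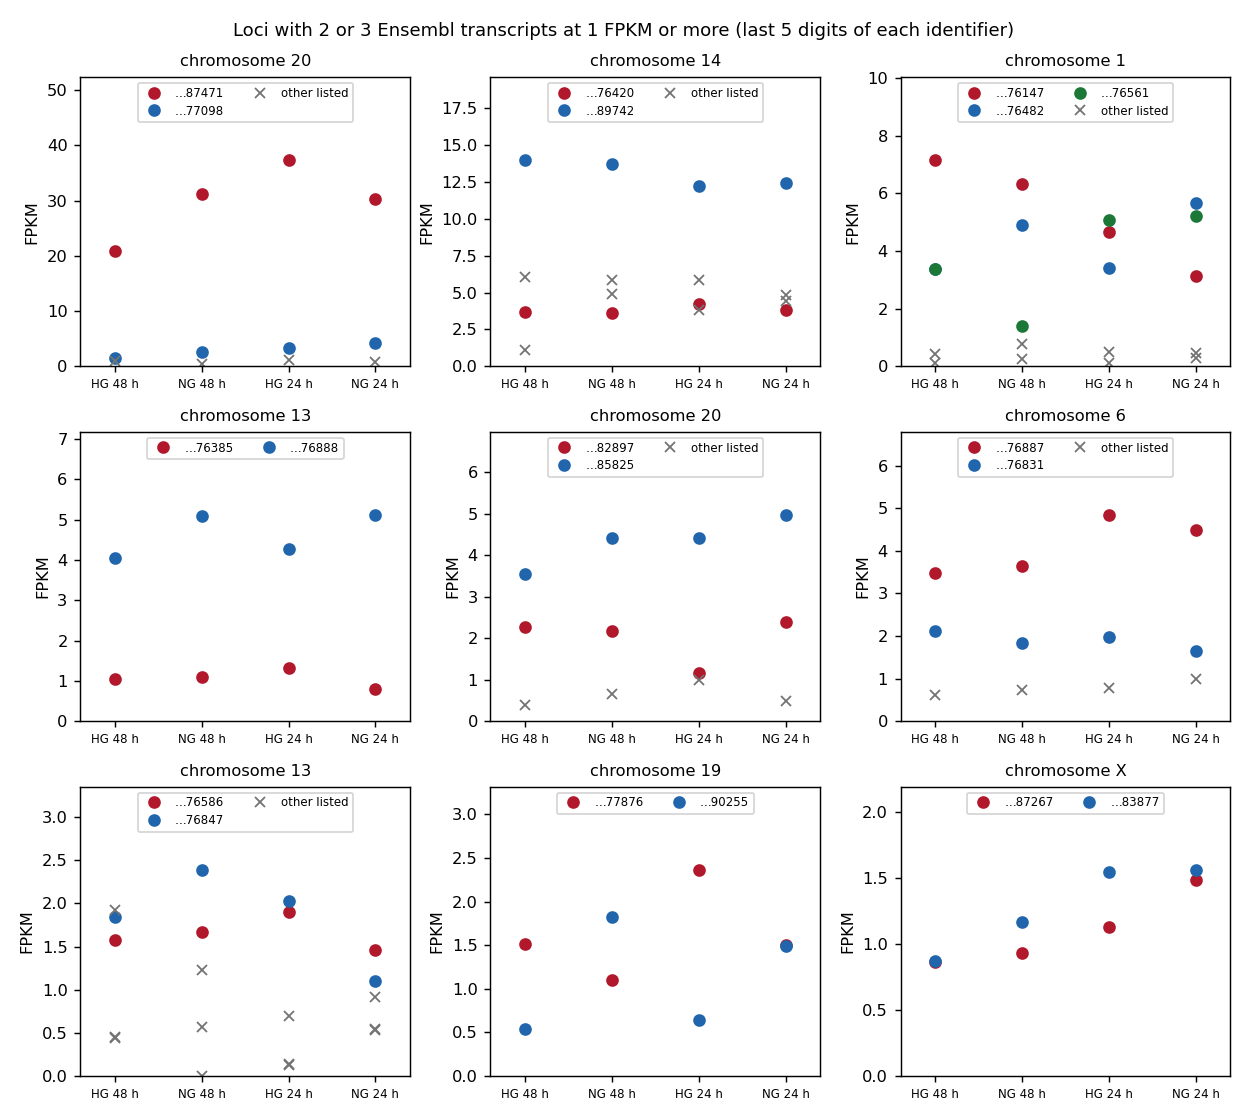
FPKM in each of the 4 libraries at the 9 loci with more than 1 of the 107 transcripts, one panel per locus. Coloured points are the Ensembl transcripts of the set, named by the last 5 digits of the identifier, and grey crosses are the other listed transcripts. The panel of chromosome 1 shows ENSRNOT00000076147 highest at 48 h and lowest of the 3 in NG at 24 h, and in that of chromosome 19 ENSRNOT00000090255 is the lower one in both HG libraries.

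The transcripts with the sharpest glucose ratios are given with the overlapping ones. ENSRNOT00000090050 overlaps NONRATT017519.2 (chr20:3403205-3404101, 897 nt), which had 39 reads in HG and 90 reads in NG at 48 h, and 75 reads in HG and 103 reads in NG at 24 h. The NONCODE transcript was thus lower in the libraries where the Ensembl one was listed. Together the pair had 77 reads in HG and 90 reads in NG at 48 h, and 128 reads in HG and 103 reads in NG at 24 h, a ratio of summed CPM of 0.893 at 48 h and 0.943 at 24 h. ENSRNOT00000082259 shares its span with ENSRNOT00000091841, which had 17 reads in HG and 0 in NG at 48 h, and 28 reads in HG and 0 in NG at 24 h. The sum over that locus gave a ratio of 1.25 at 48 h and 0.759 at 24 h. ENSRNOT00000077277 held 75.7% of its locus counts in HG (64.8 to 84.0) and 41.7% in NG (28.8 to 55.7) at 48 h, and the locus sum had a ratio of 1.61, against 2.92 for the transcript alone. ENSRNOT00000086642 is 1 of 6 listed transcripts at its locus, whose sum had a ratio of 0.743 at 48 h. The reads of ENSRNOT00000076920 stood beside 2697 reads in HG and 2642 reads in NG at 48 h, and 3127 reads in HG and 2001 reads in NG at 24 h, of NONRATT031073.2 (chrX:74332849-74341256), a longer transcript that covers its span. How the counting divided reads between overlapping transcripts is not known here, and its part in these ratios was not tested.

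**Figure D5:**
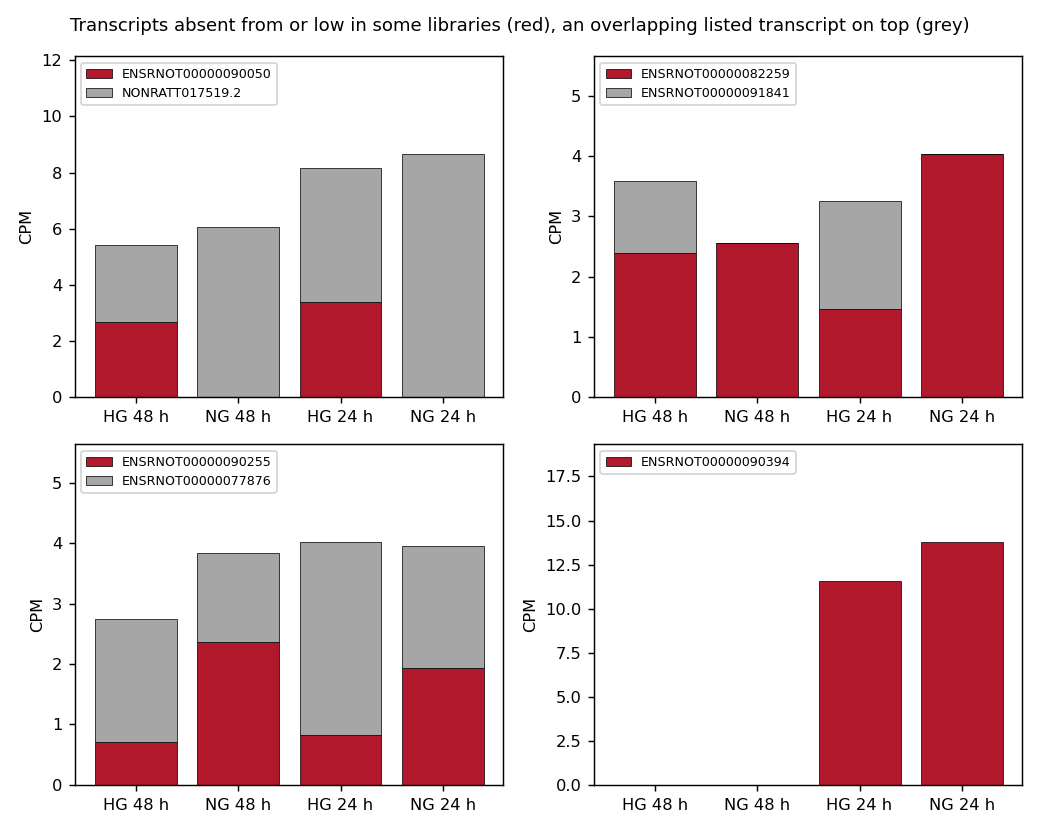
CPM in the 4 libraries of 4 Ensembl transcripts (red bars), with an overlapping listed transcript stacked on top (grey bars) in 3 panels. ENSRNOT00000090050 has no bar in either NG library, where NONRATT017519.2 makes up the whole bar, and ENSRNOT00000090394, alone at its locus, has bars at 24 h only.

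Over the 42 loci with other listed transcripts, sums per locus varied less than the single transcripts. The highest CPM was a median 1.37 times the lowest for the locus sums and 1.78 times for the 52 Ensembl transcripts there. A sum holds at least as many reads as its transcript, so counting error differs between them. Some Ensembl transcripts were also a small part of the sum, with 0.0314 to 2.52% of the locus counts for ENSRNOT00000076920 and 3.65 to 6.27% for ENSRNOT00000081222. Such sums cannot show what the transcript did. On log2 (CPM + 1), none of the locus sums was 2-fold higher or lower in HG at either time or at 48 h in NG. 1 was 2-fold lower at 48 h in HG, the locus of ENSRNOT00000076276, with 26 reads at 48 h and 80 reads at 24 h (2.80-fold, 1.78 to 4.54). At that locus the 3 other listed transcripts had 11 reads in HG and 11 reads in NG at 48 h, and 16 reads in HG and 8 reads in NG at 24 h. By plain CPM ratio, HG was over 2-fold lower at 48 h at the loci of ENSRNOT00000076600 (3.35-fold, 1.31 to 10.1), ENSRNOT00000085957 (2.63-fold, 1.13 to 6.84) and ENSRNOT00000076276 (2.03-fold, 1.25 to 3.37). From 24 h to 48 h, the sum of ENSRNOT00000085957 was 2.51-fold higher in NG (1.04 to 6.96). In HG, those of ENSRNOT00000087243 (2.37-fold, 1.44 to 4.02) and ENSRNOT00000076600 (2.12-fold, 0.765 to 6.73) were lower at 48 h. A transcript's share of its locus counts ranged over the 4 libraries by a median of 9.54 percentage points, by 25 points or more for 9 transcripts, and by 50 points or more for none.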

How the data were processed

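The authors deposited 1 table per library with a raw read count for each lncRNA transcript that had a read, per the file headers. The same tables hold the authors' FPKM values. 1 table also gives transcript lengths, and 1219 further lengths were worked out from count and FPKM. The submitters' processing notes name TopHat2 2.1.0, Cufflinks and the builds Rnor_6.0 and rn6, without saying what each was used for. Which tool counted the reads, whether by strand, and how it treated overlapping transcripts are not stated in what was used here. The libraries were strand-specific and made from total RNA, per the labels' protocols.

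The members, lists, named transcripts and tests were chosen with earlier results of these data known. The library total was recovered as the value that joins count, length and FPKM: 14225330 (HG 48 h), 14855792 (NG 48 h), 15654184 (HG 24 h) and 11877876 (NG 24 h), of which listed lncRNA counts made up 904979, 1075428, 1069067 and 846946. Whether it counts reads or fragments is not known here. 1 read was worth 0.0639 to 0.0842 CPM and the floor of 3 counts 0.192 to 0.253 CPM. Ratios were called at 2-fold on log2 (CPM + 1), with a pseudocount of 1. Ratios have exact 95% Clopper-Pearson intervals, given the summed count of the pair, and shares have 95% Wilson intervals. edgeR 4.0.16 (quasi-likelihood, library totals as sizes, terms for medium and time, 1 residual degree of freedom) was fitted on all 7321 measured transcripts (mean of at least 1 FPKM, length of at least 200 nt) with Benjamini-Hochberg adjustment at 0.05. Since each group is 1 library, its p-values set the fitted change against the disagreement between times and media, which stands in for replicate error. The value that edgeR names the biological coefficient of variation was 0.367. Without replicates it mixes that disagreement with the error between libraries. Simulated counts with known large changes, and a spread not matched to these data, were used to check the script only. DESeq2 1.42.0, limma 3.58.1 and other scalings, filters, pseudocounts and thresholds were alternatives. Named were the 10 most abundant transcripts, the 2 highest and 2 lowest of each comparison and of both times or media together, those at loci with more than 1 member, nearest the FPKM threshold, steadiest or at 0 in a library. Loci were planned by the position value in the tables, but that value is a span that few transcripts share, so overlapping spans were joined. The only gene table used here is of another rat assembly and holds 0 of the 107 identifiers, so gene names, exons and sequences are not given.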

Additional observations from a re-analysis of the deposited data

Results flagged for a closer look

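2 of the transcripts described were picked out because the HG library was above the NG library at 1 time and below it at the other, each ratio with a counting interval that leaves out 1. ENSRNOT00000082683 had 188 reads in HG and 149 reads in NG at 48 h, a ratio of 1.32 (95% counting interval 1.06 to 1.64), and 105 reads in HG and 114 reads in NG at 24 h, a ratio of 0.699 (0.531 to 0.919). Its log2 ratio at 48 h minus that at 24 h was 0.83. NONRATT031242.2, which overlaps it, had 246 reads in HG and 206 reads in NG at 48 h, and 287 reads in HG and 98 reads in NG at 24 h. ENSRNOT00000087471, the third most abundant of the Ensembl transcripts, had 227 reads in HG and 355 reads in NG at 48 h, a ratio of 0.668 (0.563 to 0.791), and 449 reads in HG and 276 reads in NG at 24 h, a ratio of 1.23 (1.06 to 1.44). Its log2 ratio at 48 h minus that at 24 h was −0.85. With 1 library per group, neither difference between the times was tested.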

How the results depend on the processing

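Counts past 2-fold were small and moved with most settings. In high glucose at 48 h (2 higher and 2 lower), TMM factors, median-of-ratios size factors and rescaling to the same sum each gave 3 and 0, a pseudocount of 0.25 gave 4 and 9, log2 (FPKM + 1) gave 1 and 4, a mean of 2 FPKM or more gave 1 and 2, and a 3-fold threshold gave 1 and 0. At 24 h (1 higher and 2 lower), the 3 scalings, log2 (FPKM + 1), a mean of 2 FPKM or more and a 3-fold threshold gave 1 and 1, a pseudocount of 0.25 gave 1 and 4, and no filter gave 3 and 2. At 48 h against 24 h in HG (0 higher and 5 lower), TMM and median-of-ratios factors gave 1 and 2, the same sum 0 and 2, and a 3-fold threshold 0 and 1. In NG (0 higher and 3 lower), a pseudocount of 0.25 gave 2 and 3, and no filter 1 and 3. Counts summed per locus gave 0 higher and 1 lower in HG at 48 h, 0 and 0 at 24 h, and 0 and 1 at 48 h in NG. The same counts came from the 55 transcripts alone at their locus and from the 42 with a mean count of at least 50, both chosen after seeing the data, and those with a mean count of at least 50 gave 0 and 3 at 48 h in HG. The cause of these shifts was not tested.

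For glucose, 1 transcript (ENSRNOT00000090050) passed the adjusted threshold without the filter and by DESeq2, and 0 in the other alternatives that kept all 4 libraries. For time, 1 (ENSRNOT00000090394) passed without the filter and by limma, and 0 in the others that kept all 4 libraries. Both transcripts entered the set only through the libraries in which they were high, so nothing is read from these passes. The fitted time change of ENSRNOT00000076920 was 0.0946 on the log2 scale without the NG 24 h library and −5.90 without the HG 24 h library, the highest and lowest values when 1 library was left out; the NG 24 h library is the one that held 55 of its reads. Of 144 fitted changes of named transcripts under alternatives, 137 kept their direction and side of the threshold. Of 65 log2 ratios of named transcripts under alternatives, 32 stayed within the counting interval of the plain ratio, 33 did not or had no such interval because a library was at 0, and 0 changed direction. The log2 ratio of HG over NG at 48 h of ENSRNOT00000088540 was −0.82 with TMM and with median-of-ratios factors and −0.83 with the same sum.

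The share of the library total became 0.888, 0.914, 1.03 and 1.06% in HG 48 h, NG 48 h, HG 24 h and NG 24 h when taken of listed lncRNA counts, 0.0675, 0.0794, 0.0817 and 0.0866% over all listed Ensembl transcripts, and 0.0516, 0.0562, 0.0600 and 0.0633% without the most abundant one. Among listed lncRNA counts the order of the 4 libraries was the same.

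No paired analysis was possible because each group holds 1 library and the labels give no shared numbers. With a median mean count of 33.75 reads, counting intervals of typical transcripts are wide, and the error between replicate libraries cannot be estimated.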

Other observations

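The closest neighbours among the 107 transcripts that do not overlap were ENSRNOT00000091794 (chr14:60057493-60060064, 658 nt) and ENSRNOT00000076276, 7 bases apart on chromosome 14. This pair was chosen after its values were seen. ENSRNOT00000091794 had 6.20 FPKM in HG and 7.77 FPKM in NG at 48 h, and 8.83 FPKM in HG and 8.70 FPKM in NG at 24 h. Both were lowest in HG at 48 h. At 48 h against 24 h in HG, ENSRNOT00000091794 was 1.43-fold lower (95% counting interval 1.01 to 2.02) and ENSRNOT00000076276 was 3.88-fold lower (2.18 to 7.33). ENSRNOT00000090633 (chr17:28825009-28829441, 439 nt) had 5 reads in HG and 11 reads in NG at 48 h, and 21 reads in HG and 17 reads in NG at 24 h.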
